A study of Mus musculus with 36 samples.

Results

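The early transcriptional response of cultured mouse chondrocytes to interleukin-1β (IL-1β) was described from 6 RNA-seq libraries of 36 in the series. These were the 3 libraries labelled control siRNA, 2 h and the 3 labelled control siRNA, 0 h, chosen by their labels and by the matching columns of the table of raw counts. All 6 came from a mouse chondrocyte line transfected with a pool of non-targeting siRNAs (NT; 50 nM per the labels, a lower dose per the study's methods). The 2 h cells received 10 ng/ml IL-1β for 2 h, and the 0 h cells received none. The other libraries were NT cells at 1, 4, 8 and 24 h of IL-1β and the same 6 time points in cells transfected with a pool of siRNAs against Ift88, a ciliary transport protein. Each condition had 3 replicates. The cells are described as fibroblast-like chondrocytes of a single line, conditionally immortalised, grown with interferon-γ (IFN-γ) and released from it before use, so they stand for neither primary cartilage nor more than 1 genetic background. No vehicle library at 2 h was analysed here, so that IL-1β and any effect of 2 h of handling cannot be told apart.

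IL-1β binds the receptor Il1r1 with its partner Il1rap, recruits Myd88 and the Irak kinases, and activates the IκB kinase complex and the mitogen-activated protein kinases (MAPKs). The transcription factor NF-κB is then freed from its IκB inhibitors and enters the nucleus, while the MAPKs act on factors such as AP-1. In cartilage IL-1β is known for inducing chemokines, nitric oxide, prostaglandins and matrix-degrading enzymes, and for lowering matrix synthesis. Many early target genes encode inhibitors of the same pathway.

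The libraries held 20223532 to 24494947 counts assigned to genes. Expression is given below as CPM, the read count of a gene relative to its library's total after scaling by the trimmed mean of M values (TMM), and values of 3 libraries are listed in the order replicate 1, 2 and 3. Pearson correlations of log2 CPM were 0.996 to 0.9961 among the 0 h libraries, 0.9923 to 0.9952 among the 2 h libraries and 0.9602 to 0.962 between the groups. Replicate 2 of the 2 h group stood slightly apart. Over 2470 genes that were higher at 4 h than at 1 h, its level was lower than that of the other 2 h replicates by a median of 0.127 on the log2 scale, against 0.0309 and 0.107 higher for replicates 1 and 3. Markers were read in TPM, a relative abundance that allows for transcript length. Of 9 chondrocyte markers 5 exceeded 1 TPM in every 0 h library, namely Sox9, Col2a1, Col11a1, Comp and Hapln1, with Col2a1 at 7.99 to 9.05 TPM and Col11a1 at 43.4 to 47.7 TPM at 0 h. The other 4 were at or below 0.56 TPM in all 6 libraries, among them Acan at 0.0888 to 0.206 TPM and Col9a1 at or below 0.0785 TPM. Of 12 fibroblast markers 11 exceeded 1 TPM in every 0 h library, and their summed level was 5080 to 5220 TPM at 0 h and 6270 to 6570 TPM at 2 h. The 10 leukocyte markers summed to 11.9 to 15.8 TPM at 0 h and 8.15 to 10.9 TPM at 2 h, mostly Cd68 at 9.41 to 12.3 TPM at 0 h, with Ptprc at or below 0.115 TPM and Cd3e at 0 in every library. The endothelial, epithelial, osteoblast, adipocyte and skeletal muscle lists held 0, 0, 3, 1 and 1 markers above 1 TPM in every 0 h library.

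Comparing 2 h with 0 h asks which transcripts had changed early after IL-1β. Of 14990 genes that passed the filter on low counts, 1931 (12.9%) rose and 2205 (14.7%) fell, at an adjusted p under 0.05 and a fold change over 1.5 in edgeR's quasi-likelihood test. Rose and fell are used below only of genes that passed both thresholds, and a log2 value after a symbol is its fold change at 2 h against 0 h. SE below is the size of the log2 value over the square root of the test's F statistic. It is approximate, most of all at low counts. In 1891 of the genes that rose and 2178 of those that fell, the 3 libraries of each group did not overlap. Such separation is likely in genes that pass both thresholds, so it is no separate support. Its share over all genes tested was not counted. Rises reached further than falls. A change of at least 8-fold was seen in 122 genes that rose and in 6 that fell, and at least 16-fold in 54 and 0. The median log2 change among called genes was 1.03 for rises and 0.954 in size for falls. Genes that rose took 14 to 14.3% of all counts at 0 h and 26.9% in each 2 h library. Genes that fell took 5.43 to 5.51% at 0 h and 2.4 to 2.57% at 2 h. The balance of calls depended on the scaling. Rises made up 46.7% of the calls with TMM, 36.2% with upper-quartile scaling (1598 rises and 2819 falls), which shifted the median of all genes by −0.11 on the log2 scale, and 22.7% with total counts alone (1196 and 4079, shift −0.28). They made up 26.6% with the TPM values (1064 and 2937, shift −0.23), where the quantification, test, pseudocount and filter differed as well. Without replicate 2 of the 2 h group 2046 genes rose and 2197 fell. These are bulk libraries, in which fewer cells of a type and less RNA per cell cannot be told apart.

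**Figure D1:**
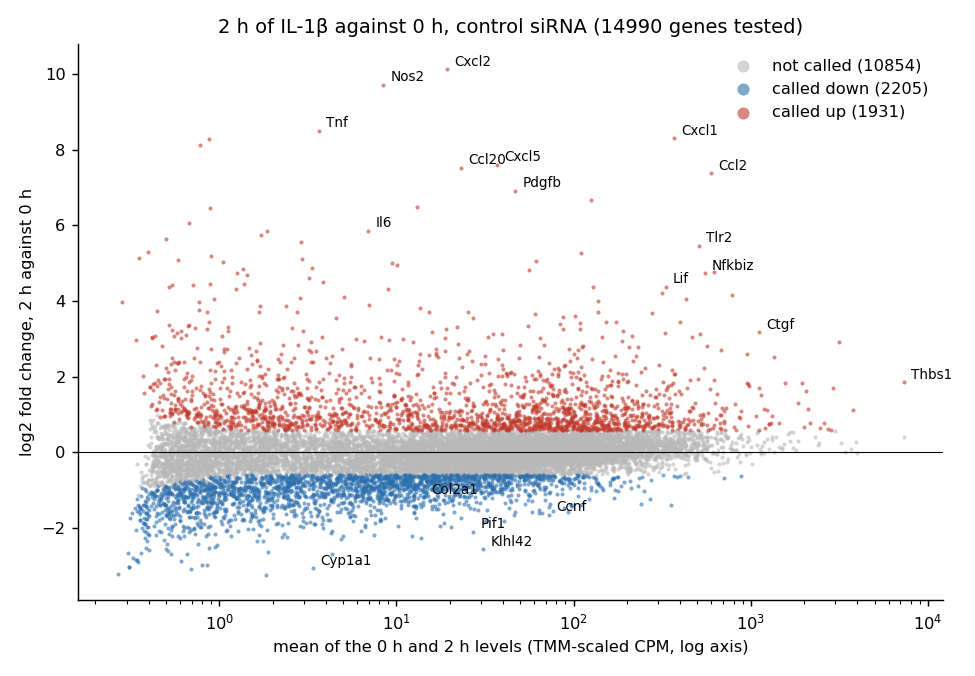
Log2 fold change at 2 h against 0 h in NT cells (vertical axis) against the mean of the 0 h and 2 h levels in TMM-scaled CPM (horizontal log axis), 1 point per gene, with 1931 genes called up in red, 2205 called down in blue and the rest in grey. The rises extend to 10.13 on the log2 scale (Cxcl2, a fitted value that depends on the prior count since it had 2 counts at 0 h), while Klhl42 and Cyp1a1, among the largest falls, lie at −2.56 and −3.06.

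Chemokines were among the largest rises. The gene lists here and below were drawn up with earlier results of these data known, so their shares are descriptions. Of the 6 members tested of a list of 7 CXC chemokines that attract neutrophils, 4 rose and 0 fell (median log2 change 6.24, against −0.0147 over all genes tested). Of 15 tested of 23 other chemokines, 12 rose and 0 fell (median 3.09). Cxcl1 was measured at 2.30, 2.64 and 2.01 CPM at 0 h and 704, 723 and 786 CPM at 2 h, a log2 fold change of 8.31 ± 0.08 (SE, adjusted p = 1.14e-16). All 3 libraries at 2 h stood far above those at 0 h. Cxcl2 had 2 counts in all over the 0 h libraries and lay at 36.1, 34.4 and 44.6 CPM at 2 h, a ratio of 1340 with a 95% counting interval of 371 to 11100. Ccl2, which attracts monocytes, was at 6.43, 8.41 and 6.49 CPM at 0 h and 1145, 1242 and 1177 CPM at 2 h (log2 7.38 ± 0.08 SE, adjusted p = 3.01e-16), and the related Ccl7 at 2.43, 2.34 and 2.46 CPM at 0 h and 239.8, 253 and 252 CPM at 2 h (log2 6.68 ± 0.07 SE, adjusted p = 1.14e-16). Neither overlapped between the groups, but Cxcl1, Ccl2 and Ccl7 were picked among genes without such overlap. In GRCm38, Cxcl5 (chromosome 5, 90759360 to 90761624), Cxcl3 (chromosome 5, 90786103 to 90789600), Cxcl1 (chromosome 5, 90891241 to 90893115) and Cxcl2 (chromosome 5, 90903871 to 90905938) lie within 1 cluster, and Ccl2 (chromosome 11, 82035571 to 82037453) and Ccl7 (chromosome 11, 82045712 to 82047525) in another. Ccl20, a ligand of Ccr6 on lymphocytes and dendritic cells, rose by 7.53 and Cxcl5 by 7.60 on the log2 scale. Cxcl10, an interferon-inducible ligand of Cxcr3, already stood at 46.1, 45.4 and 39.5 CPM at 0 h and reached 1225, 1145 and 1218 CPM. Cx3cl1, a membrane-bound chemokine, was abundant at 0 h and was at 401 ± 15.9 CPM before IL-1β and 2298 ± 178 CPM after 2 h (SD, n = 3). The chemokines that did not pass were Ppbp (log2 0.38), Cxcl15 (log2 −0.53), Cxcl12 (log2 −0.03), Ccl25 (log2 −0.30) and Ccl27a (log2 −0.49).

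NF-κB acts through short κB sites, and the promoters of 4 of the genes with the largest rises are shown because they hold such a site close to the transcription start. Genes without a match or a window were passed over. Tnf, Sele, Csf2 and Ch25h rose more than Il6, and their windows held no match. Of 103 named genes that rose 76 had a RefSeq promoter. The sequences are those of RefSeq on GRCm38.p6, the 250 bases before the annotated start on the gene's own strand, 5′ to 3′, and capitals mark each match to the κB consensus. All 4 genes are on the forward strand: Cxcl2 at chr5:90903649-90903898, Cxcl1 at chr5:90890995-90891244, Ccl20 at chr1:83116516-83116765 and Il6 at chr5:30012864-30013113.
Cxcl2: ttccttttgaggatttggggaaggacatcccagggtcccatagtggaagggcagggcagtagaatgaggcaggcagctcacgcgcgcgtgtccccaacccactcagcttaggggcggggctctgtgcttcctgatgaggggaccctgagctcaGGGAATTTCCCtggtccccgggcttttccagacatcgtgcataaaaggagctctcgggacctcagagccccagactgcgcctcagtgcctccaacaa
Cxcl1: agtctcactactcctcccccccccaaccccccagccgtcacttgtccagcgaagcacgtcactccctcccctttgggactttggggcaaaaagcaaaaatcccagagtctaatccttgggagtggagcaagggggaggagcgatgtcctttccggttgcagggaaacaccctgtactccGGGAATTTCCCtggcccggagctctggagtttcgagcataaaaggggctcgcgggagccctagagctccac
Ccl20: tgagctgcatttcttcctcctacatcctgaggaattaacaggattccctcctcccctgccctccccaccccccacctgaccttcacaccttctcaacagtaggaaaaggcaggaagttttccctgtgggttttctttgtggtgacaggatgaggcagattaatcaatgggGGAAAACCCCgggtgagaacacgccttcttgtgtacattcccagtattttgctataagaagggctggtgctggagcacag
Il6: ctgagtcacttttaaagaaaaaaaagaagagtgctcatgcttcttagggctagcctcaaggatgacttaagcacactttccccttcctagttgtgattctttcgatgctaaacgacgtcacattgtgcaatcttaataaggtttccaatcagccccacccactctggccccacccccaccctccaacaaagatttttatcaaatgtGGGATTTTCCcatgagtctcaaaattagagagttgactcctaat
The match in Cxcl2 and that in Cxcl1 are the same 11 letters, GGGAATTTCCC, which hold 2 overlapping matches, beginning 97 and 71 bases before the start. Those in Ccl20 and Il6 begin 80 and 44 bases before it. In the full windows of 300 bases (250 before to 50 after the start, both strands), the κB consensus was present in 26.3% of 95 windows of genes that rose at least 8-fold, in 9.04% of 1714 windows of all genes that rose, in 3.22% of 1897 windows of genes that fell, in 5.36% of 13351 windows of all genes tested and in 4.51% of all 32851 windows. An AP-1 motif (TGACTCA or TGAGTCA) was present in 12.6%, 6.48%, 3.37%, 3.95% and 5.2% of the same sets. The CArG motif, bound by the serum response factor Srf, was in 4.21%, 3.5%, 1.16%, 1.34% and 1.63%. RefSeq windows were matched by symbol for 10457 of the 14990 genes. A match is a description of letters, and binding was not measured.

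**Figure D2:**
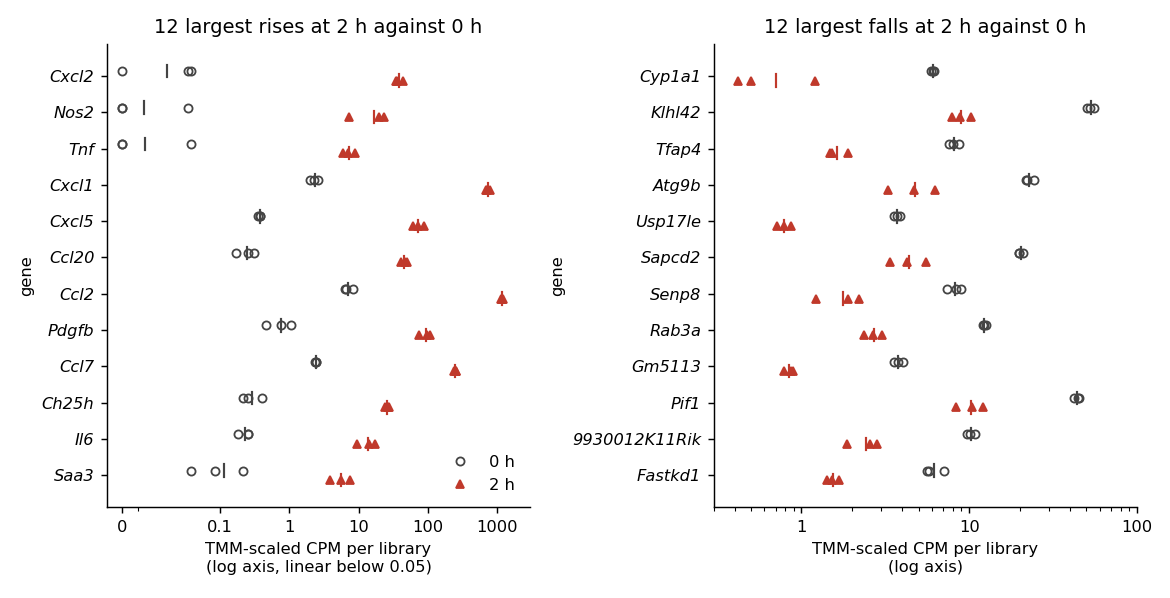
TMM-scaled CPM in each library (horizontal axis; log scale, linear below 0.05 in the left panel) for the 12 protein-coding genes with the largest rises (left) and falls (right) at 2 h, with open circles for 0 h, filled triangles for 2 h and short lines for the means of 3 libraries. The 24 genes were chosen among those without overlap between the groups, and the 2 h values of Nos2 run from 7.21 to 23.6 CPM.

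Of 27 cytokines and growth factors tested of 34, 18 rose and 3 fell (median 1.55). Tnf had 1 count at 0 h in 3 libraries and was at 7.08, 5.89 and 8.81 CPM at 2 h, a ratio of 508 (95% counting interval 90.7 to 20100). Csf2, the granulocyte-macrophage colony-stimulating factor, had no count at 0 h and was at least 36.6-fold higher at 2 h, taken against a floor of 3 counts over the group, with a lower 95% counting limit of 29.2-fold. Il6 was at 0.255, 0.251 and 0.179 CPM at 0 h and 14.0, 9.57 and 17.5 CPM at 2 h (log2 5.86 ± 0.318 SE, adjusted p = 2.48e-09), with replicate 2 the lowest of the 2 h libraries. Lif, a cytokine of the Il6 family, went from 30.3, 32.2 and 29.1 CPM to 620.1, 564 and 713 CPM, and Csf3 from 0.170, 0.0418 and 0.224 CPM to 1.21, 1.54 and 2.06 CPM. Larger amounts of reads came from Csf1, the macrophage growth factor, at 729.5 ± 9.13 CPM before IL-1β and 5568 ± 92.7 CPM after 2 h (SD, n = 3). Its share of all counts went from 0.0802% to 0.505%. Pdgfb, a growth factor for mesenchymal cells, was not on the list and was among the 12 largest rises, at 0.766, 0.460 and 1.07 CPM at 0 h and 96.4, 73.6 and 109 CPM at 2 h. Vegfa (log2 3.06), Ereg (log2 3.45) and Hbegf (log2 2.02) rose, and Fgf18 (log2 −1.07), Il7 (log2 −0.78) and Tnfsf9 (log2 −0.76) fell.

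Of 8 inhibitors of NF-κB 6 rose and 0 fell (median 3.3). Nfkbia, the IκBα protein, was at 41.1, 43.7 and 44.1 CPM at 0 h and 331, 324 and 339 CPM at 2 h (log2 2.95 ± 0.05 SE, adjusted p = 1.23e-14). Nfkbiz, an atypical nuclear IκB needed for Il6 expression, was at 40.7, 39.3 and 39.3 CPM at 0 h and 1061, 1072 and 1044 CPM at 2 h (log2 4.74 ± 0.05 SE, adjusted p = 1.14e-16). The groups were far apart in both. Nfkbie, Bcl3, Nfkbid and Nfkbib rose by a log2 of 3.66, 3.71, 4.32 and 1.48, while Nkiras1 (log2 0.34) and Nkiras2 (log2 −0.42) did not pass the fold threshold. Among 11 subunits and kinases all 5 Rel-family subunits rose: Relb by a log2 of 2.82, Rel by a log2 of 2.20, Nfkb1 by a log2 of 2.18, Nfkb2 by a log2 of 1.85 and Rela by a log2 of 1.63. None of the 6 kinase components passed (log2 Map3k14 0.47, Tbk1 0.31, Chuk 0.19, Ikbke 0.09, Ikbkb 0.08 and Ikbkg −0.39). Of 17 genes of the ubiquitin feedback on NF-κB, 9 rose and 0 fell (median 0.692), led by Traf1 (log2 4.62), the A20 gene Tnfaip3 (log2 4.21) and Birc3 (log2 2.70). Tnfaip3 was at 33.2, 34.3 and 29.1 CPM at 0 h and 586, 601 and 605 CPM at 2 h.

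Nearer to the receptor, 11 of 19 tested of 23 genes rose and 1 fell (median 0.668), and with total counts 6 rose and 3 fell. Il1r1 was at 32.0, 32.1 and 31.0 CPM at 0 h and 99.6, 90.3 and 106 CPM at 2 h (log2 1.64 ± 0.06 SE, adjusted p = 5.16e-11), Il1rap at 84.5, 89.3 and 84.8 CPM at 0 h and 155, 169 and 159 CPM at 2 h (log2 0.90 ± 0.05 SE, adjusted p = 2.23e-09), and Il1rl1, the receptor of Il33, rose by a log2 of 2.38. Map3k8, the kinase Tpl2 that links the IκB kinases to Erk, rose by a log2 of 3.27. Tab1, an adaptor of the kinase Tak1, fell, from 30.5, 28.5 and 28.2 CPM to 14.5, 12.2 and 10.8 CPM. Among 15 tested of 22 receptors of pattern recognition and inflammasome components, 6 rose and 0 fell (median 0.536). Tlr2, a receptor of bacterial lipoproteins, had the smallest p of any gene and was at 22.7, 22.2 and 23.3 CPM at 0 h and 989.8, 1007 and 995 CPM at 2 h (log2 5.46 ± 0.05 SE, adjusted p = 7.39e-17). Its co-receptors Tlr1 (log2 0.22) and Tlr6 (log2 0.54) did not pass. Nod2 (log2 2.63), a sensor of bacterial peptides, and its kinase partner Ripk2 (log2 3.45) rose together with Casp4 (log2 2.33) and Nlrp3 (log2 2.17).

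Most transcription factors on a list of immediate-early and related factors were above their 0 h level at 2 h. The share describes this list and is not a test of the class. Of 42 tested of 43, 38 rose and 1 fell (median 2.01). Fosb was at 3.66, 4.22 and 3.53 CPM at 0 h and 109.7, 117 and 100 CPM at 2 h (log2 4.83 ± 0.09 SE, adjusted p = 3.78e-14), Egr4 at 0.596, 0.669 and 0.403 CPM at 0 h and 17.4, 20.6 and 16.9 CPM at 2 h (log2 5.02 ± 0.169 SE, adjusted p = 1.64e-11) and Nr4a1 at 16.04, 17.4 and 15.3 CPM at 0 h and 269, 260.3 and 250 CPM at 2 h (log2 3.997 ± 0.06 SE, adjusted p = 4.82e-15). In all 3 genes every 2 h library lay above every 0 h library. Fos (log2 1.48), Jun (log2 0.85) and Egr1 (log2 0.80) rose less than Fosb, Junb (log2 3.12) and Fosl2 (log2 2.82). Jun did not pass the fold threshold with total counts, where its log2 change was 0.57. Cebpd (log2 3.44) and Cebpb (log2 2.59), which act with NF-κB at acute-phase genes, rose, and Klf15 fell (log2 −1.61). Of 30 tested of 31 genes that restrain MAPK and cytokine signalling, 19 rose and 4 fell (median 1.11), and with total counts 17 rose and 6 fell. Dusp5, a phosphatase of nuclear Erk, rose by a log2 of 3.38 and Errfi1, an inhibitor of the epidermal growth factor receptor, by a log2 of 3.05, whereas Dusp7 (log2 −1.06) and Rgs2 (log2 −1.94) fell. Among 14 tested of 16 regulators of cytokine mRNA decay, 5 rose and 1 fell (median 0.278). Zc3h12a, the endonuclease Regnase-1, was at 5.91, 5.48 and 5.32 CPM at 0 h and 214, 201 and 232 CPM at 2 h (log2 5.27 ± 0.08 SE, adjusted p = 3.51e-15), and Zfp36, tristetraprolin, rose by a log2 of 2.02. The median of this list was below 0 with total counts (−9.5e-05), where 5 rose and 2 fell.

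**Figure D3:**
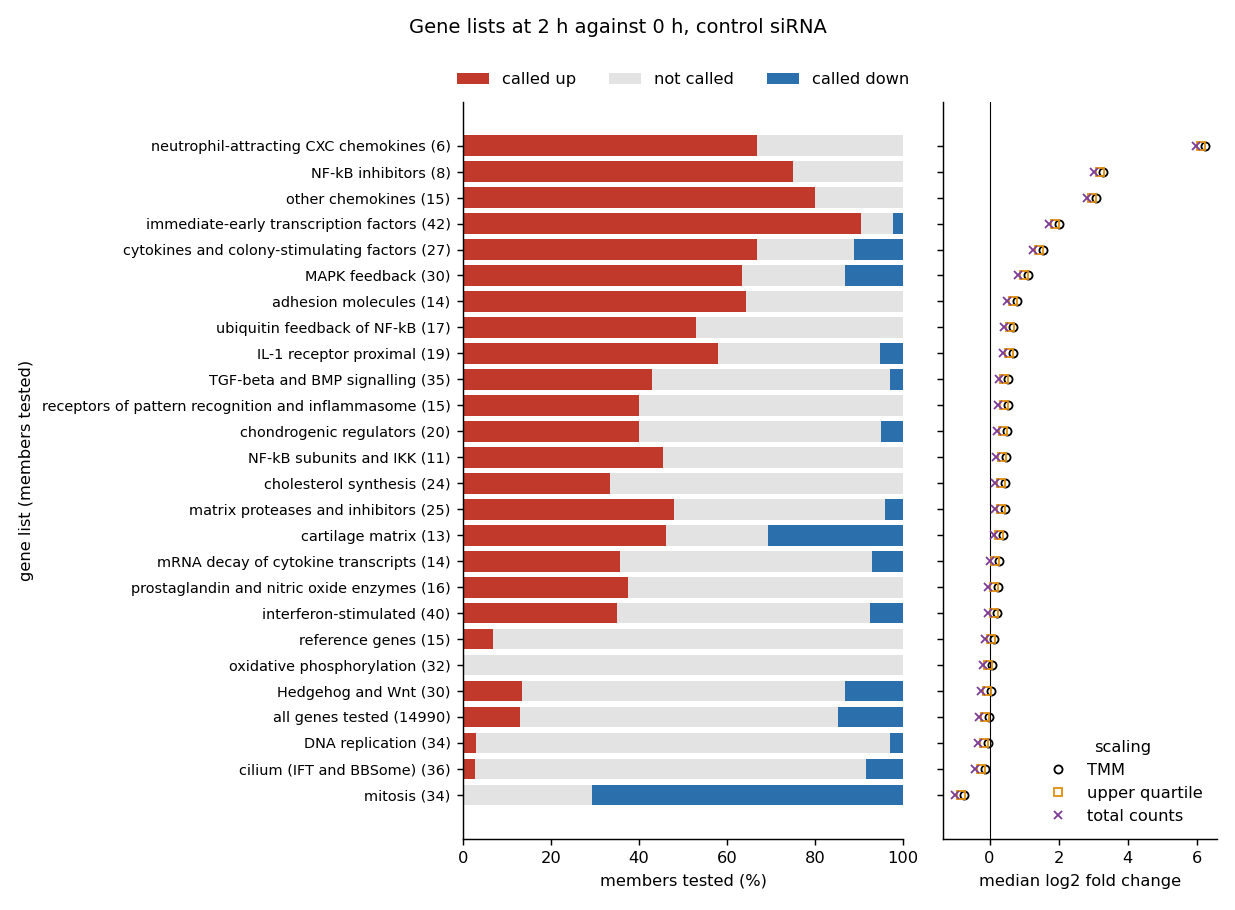
Share of tested members of each gene list called up (red), called down (blue) or not called (grey) at 2 h against 0 h (left, percent of members tested, with the number tested in brackets), and the median log2 fold change of each list with TMM, upper-quartile and total-count scaling (right). Neutrophil-attracting chemokines have the highest median (6.24) and mitosis the lowest (−0.727) with TMM, against −0.0147 over all genes.

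Among the enzymes of nitric oxide and prostaglandin synthesis, 6 of 16 tested of 25 rose and 0 fell (median 0.234, and −0.0436 with total counts, where 5 rose and 3 fell). Nos2, the inducible nitric oxide synthase, had 1 count over the 0 h libraries and was at 19.6, 7.21 and 23.6 CPM at 2 h. The ratio was 1160, with a 95% counting interval of 209 to 46000. Replicate 2 was the lowest of the 2 h libraries, and without it the fitted log2 change, which depends on the prior count, was 10.1 in place of 9.71. Slc7a2, a transporter of the substrate arginine, rose by a log2 of 2.24 and Gch1, which makes the enzyme's cofactor, by a log2 of 1.24. Ptgs2, cyclo-oxygenase 2, was at 49.2, 48.2 and 49.2 CPM at 0 h and 796, 781 and 858 CPM at 2 h (log2 4.05 ± 0.05 SE, adjusted p = 1.18e-15). Ptges, the synthase downstream of it, was at 2.85, 3.10 and 3.18 CPM at 0 h and 2.89, 4.26 and 3.44 CPM at 2 h and did not pass (log2 0.22, adjusted p = 0.264). The prostaglandin E2 receptor Ptger4 rose by a log2 of 3.06.

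Of 25 matrix proteases and inhibitors tested of 34, 12 rose and 1 fell (median 0.434), and with total counts 9 rose and 2 fell. The plasminogen activator Plau rose by a log2 of 2.13 and its receptor Plaur by a log2 of 2.80. Of the aggrecanases, Adamts4 (log2 0.96) rose and Adamts5 (log2 0.15) did not pass. The collagenase Mmp13 was low, at 0.681, 0.669 and 0.358 CPM at 0 h and 1.31, 1.04 and 0.983 CPM at 2 h (log2 0.94, adjusted p = 0.014), and did not pass in DESeq2, with total counts, without replicate 3 of the 0 h group or without replicate 1 of the 2 h group, with log2 changes of 0.98, 0.67, 0.71 and 0.82. Mmp3 did not pass the filter. The inhibitors Timp1 (log2 1.21) and Timp3 (log2 1.62) rose. Of 14 tested of 18 adhesion molecules, 9 rose and 0 fell (median 0.791). Icam1 was at 3.74, 3.35 and 3.62 CPM at 0 h and 130.1, 101 and 128 CPM at 2 h (log2 5.07 ± 0.117 SE, adjusted p = 3.63e-13) and Vcam1 at 11.5, 12.6 and 11.1 CPM at 0 h and 248, 209 and 278 CPM at 2 h (log2 4.38 ± 0.102 SE, adjusted p = 3.85e-13), both ligands of leukocyte integrins. Sele, E-selectin, had no count at 0 h and was at least 40.7-fold higher at 2 h, against the same floor of 3 counts, with a lower 95% counting limit of 32.5-fold.

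Genes of the cartilage matrix moved in both directions. Of 13 tested of 23, 6 rose and 4 fell (median 0.394, with 4 rising and 5 falling with total counts). Col2a1, type II collagen, fell from 22.0, 18.2 and 19.8 CPM to 8.97, 8.07 and 9.30 CPM (log2 −1.19 ± 0.09 SE, adjusted p = 1.31e-07), and Col9a3 (log2 −1.59), Col11a2 (log2 −0.68) and Col10a1 (log2 −0.68) fell with it. Col11a1 (log2 1.24), Comp (log2 1.30) and Cilp2 (log2 3.54) rose. Among chondrogenic regulators 8 of 20 tested of 25 rose and 1 fell (median 0.505), and with total counts 7 rose and 3 fell. Sox9, which drives Col2a1 in chondrocytes, was at 23.3, 22.1 and 21.4 CPM at 0 h and 80.03, 69.2 and 74.4 CPM at 2 h (log2 1.74 ± 0.07 SE, adjusted p = 5.16e-11). Nfatc1 was at 28.2, 27.4 and 28.4 CPM at 0 h and 195, 176 and 182 CPM at 2 h (log2 2.72 ± 0.05 SE, adjusted p = 7.49e-14) and Nfatc2 at 0.170, 0.209 and 0.0895 CPM at 0 h and 7.13, 4.17 and 5.86 CPM at 2 h (log2 5.12 ± 0.332 SE, adjusted p = 1.68e-08). Both encode calcium-regulated factors. Nkx3-2, a repressor of chondrocyte maturation, fell (log2 −1.87), and Sox4 did not pass (log2 −0.52).

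In the TGF-β and BMP family 15 of 35 rose and 1 fell (median 0.543). The ligand Tgfb2 was at 30.6, 32.4 and 31.5 CPM at 0 h and 180.4, 175 and 178 CPM at 2 h (log2 2.49 ± 0.05 SE, adjusted p = 5.85e-14), and the feedback inhibitors Skil (log2 2.55), Tgif1 (log2 2.001), Smad7 (log2 1.72) and Nog (log2 2.06) rose, while the signal transducers Smad2 (log2 0.28), Smad3 (log2 0.39) and Smad4 (log2 0.12) did not pass. Of 30 Hedgehog and Wnt genes tested of 35, 4 rose and 4 fell (median 0.0337, and −0.0795 with upper-quartile scaling, where 4 rose and 7 fell, and −0.244 with total counts, where 3 rose and 8 fell). Both shares were 13.3%, near the 12.9% of all genes tested that rose and the 14.7% that fell. As a set the list thus changed about as often as genes at large. Ptch1, the Hedgehog receptor and target, rose by a log2 of 1.30, Gli1 (log2 0.22), another target, did not pass, and Hhip, which binds Hedgehog ligands, fell from 0.808, 0.586 and 0.895 CPM to 0.105, 0.227 and 0.179 CPM.

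Contractile and cytoskeletal genes were among those that gained the most reads. Thbs1, thrombospondin 1, went from 0.349% to 1.04% of all counts, the largest gain of any gene, and Acta2, Actb, Cyr61 and Ctgf were among the 10 largest. A list of 26 actin-cytoskeleton genes and targets of Srf and of the co-activator Yap was therefore drawn up after these values were seen. Of its 26 members 19 rose and 0 fell (median 1.05), and 16 rose and 0 fell with total counts. Ctgf, a matricellular growth factor, was at 225, 224 and 215 CPM at 0 h and 1875, 2163 and 1948 CPM at 2 h, Acta2, smooth muscle actin, at 1329, 1363 and 1394 CPM at 0 h and 4530, 4589 and 4282 CPM at 2 h, and Srf at 140.2, 150.4 and 142 CPM at 0 h and 600.3, 618 and 597 CPM at 2 h. The groups did not overlap in any of these 3. Vcl (log2 1.83), Tpm1 (log2 1.30), Actg1 (log2 1.15) and Zyx (log2 1.10) rose, and Flna (log2 0.57), Tpm4 (log2 0.54) and Tpm3 (log2 0.25) stayed under the fold threshold. Among 15 reference genes Actb was the 1 that rose, from 2372, 2344 and 2355 CPM to 5159, 5332 and 5025 CPM (log2 1.13 ± 0.04 SE, adjusted p = 1.38e-11). Actb and Actg1 have near-identical coding sequences, so their counts are less certain. The log2 changes of the other 14 lay between −0.34 (Rpl13a) and 0.32 (Gusb).

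Of 34 mitosis genes 24 fell and 0 rose (median −0.727), and 31 fell with total counts. Ccnf, cyclin F, was at 111, 107 and 114 CPM at 0 h and 36.5, 30.2 and 39.5 CPM at 2 h (log2 −1.65 ± 0.08 SE, adjusted p = 4.72e-10), and the mitotic kinases Aurka (log2 −1.35) and Plk1 (log2 −1.10), the kinesin Kif20b (log2 −1.39) and the kinetochore protein Cenpf (log2 −1.48) fell. Mki67 (log2 −0.54), Top2a (log2 −0.57) and Cdk1 (log2 −0.39) did not pass the fold threshold. Of 34 DNA replication genes 1 rose (Orc1, log2 0.77) and 1 fell (E2f2, log2 −1.73), with a median of −0.0532, and Mcm2 (log2 0.18) and Pcna (log2 0.38) did not pass. With total counts 0 rose and 9 fell.

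The list of cholesterol synthesis held 8 rises and 0 falls among 24 tested of 25 (median 0.447), and 3 rises with total counts. Srebf2, the master regulator, was at 376, 357 and 345 CPM at 0 h and 736, 737 and 693 CPM at 2 h (log2 1.01 ± 0.04 SE, adjusted p = 2.82e-10), and Cyp51 (log2 0.95), an enzyme of sterol synthesis, rose. Ch25h, which oxidises cholesterol to 25-hydroxycholesterol, was among the 12 largest rises, at 0.213, 0.251 and 0.403 CPM at 0 h and 24.1, 26.5 and 27.4 CPM at 2 h. Interferon-stimulated genes were mixed. Of 40, 14 rose and 3 fell (median 0.228, and −0.0498 with total counts, where 10 rose and 9 fell). Ifnb1, interferon-β, was at 0.170, 0.0837 and 0.0447 CPM at 0 h and 1.99, 1.59 and 1.70 CPM at 2 h (log2 4.05 ± 0.376 SE, adjusted p = 6.13e-07), Irf5 rose by a log2 of 3.31 and Rsad2 by a log2 of 2.30, whereas Oas2 (log2 −1.11), Oas3 (log2 −0.75) and Stat2 (log2 −0.64) fell. The cells had been grown with IFN-γ before their release. Of 36 ciliary transport and BBSome genes 1 rose (Bbs9, log2 0.75) and 3 fell (Ttc30b, Bbs5 and Traf3ip1, log2 −1.12, −0.80 and −0.59), with Ift88 at 9.23, 8.78 and 9.44 CPM at 0 h and 7.92, 8.16 and 8.40 CPM at 2 h (log2 −0.16, adjusted p = 0.149). With total counts 0 rose and 6 fell. The call of Traf3ip1 was at the fold threshold and was lost in DESeq2 (−0.57), with median-of-ratios scaling (−0.58), without the filter (−0.58) and in the model of 18 libraries (−0.58). In oxidative phosphorylation 0 of 32 genes rose or fell (adjusted p and fold together), with log2 changes from −0.18 (Ndufv2) to 0.38 (Ndufa2).

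The 12 largest falls were taken among protein-coding genes with at least 50 counts per library on average and no overlap between the groups. They had log2 changes from −1.99 (Fastkd1) to −3.06 (Cyp1a1). Cyp1a1, an oxidase induced through the aryl hydrocarbon receptor, was at 6.08, 6.19 and 5.95 CPM at 0 h and 0.420, 0.499 and 1.21 CPM at 2 h. Klhl42, a substrate adaptor of cullin 3 ubiquitin ligases, was at 52.9, 55.2 and 50.8 CPM at 0 h and 8.86, 7.94 and 10.2 CPM at 2 h (log2 −2.56 ± 0.08 SE, adjusted p = 1.19e-11). Pif1, a DNA helicase, was at 44.9, 42.3 and 44.6 CPM at 0 h and 12.1, 8.34 and 10.4 CPM at 2 h (log2 −2.10 ± 0.0981 SE, adjusted p = 4.99e-10). In each of these 3 genes every 2 h library was below every 0 h library, which the choice of genes required. Tfap4 (log2 −2.30), a transcription factor, Atg9b (log2 −2.27), of autophagy, Sapcd2 (log2 −2.22), Senp8 (log2 −2.21), a protease of Nedd8, and Rab3a (log2 −2.19), of vesicle release, also fell, as did Usp17le (log2 −2.23), Gm5113 (log2 −2.15) and 9930012K11Rik (log2 −2.09). Usp17le belongs to a multicopy family, and its counts are less certain for that reason.

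Genes named Zfp and a number, a set taken by symbol alone, were frequent among the falls and were counted after their values were seen. Of 309 tested 147 fell (47.6%, against 14.7% of all genes) and 14 rose, with a median of −0.51. Non-coding classes also fell often: 101 of 349 lincRNAs (28.9%) and 69 of 225 processed transcripts (30.7%) fell, against 1814 of 12696 protein-coding genes (14.3%) and 30 of 777 processed pseudogenes (3.86%). Among protein-coding genes, the 100 that rose at least 8-fold had a median span of 9.17 kb and 4 exons, whereas all 1649 that rose had 27.2 kb and 7 exons. Those that fell had 17.9 kb and 6 exons, and all 12693 tested with an annotation had 24.2 kb and 8 exons. Median levels at 0 h were 1.09 CPM in genes that rose at least 8-fold, 25.3 CPM in all that rose, 9.84 CPM in genes that fell and 31.7 CPM over all, so the sets also differed in level.

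The place of 2 h in the time course was read in 1 model of the 18 NT libraries. Against 1 h, 976 genes (6.08% of 16048) were higher at 2 h and 931 (5.8%) were lower. Against 4 h, 1688 (10.5%) were higher and 2658 (16.6%) were lower. Of 43 immediate-early factors 17 were lower at 2 h than at 1 h and 11 were higher. Fosb averaged 3.77, 762, 108 and 9.21 CPM at 0, 1, 2 and 4 h, Tnfaip3 31.9, 2710, 594 and 335 CPM and Cxcl1 2.29, 1418, 734 and 673 CPM. Each was lower at 2 h than at 1 h, with log2 differences of −2.81, −2.19 and −0.95 (adjusted p = 3.61e-20, 1.08e-20 and 1.26e-13). Of 16 adhesion genes 9 were higher at 2 h than at 1 h and 0 lower, and of 17 other chemokines 8 were higher and 0 lower. Nos2 averaged 0.0141, 0.146, 16.7 and 349.8 CPM, and Il6 averaged 0.226, 2.98, 13.6 and 81.6 CPM. Of 40 interferon-stimulated genes 34 were lower at 2 h than at 4 h and 1 was higher, Rsad2 averaging 29.7, 83.4, 147 and 806 CPM. Of 25 cholesterol synthesis genes 21 were higher at 2 h than at 4 h and 0 lower, Srebf2 averaging 355, 652, 718 and 325 CPM. All of these contrasts use the same 2 h libraries.

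Some genes were at an extreme at 2 h itself. In 169 genes the 2 h level was higher, and in 248 it was lower, than at both 1 h and 4 h past the same thresholds and than at 0 h. By the smaller of the log2 differences from 1 h and 4 h, the largest such peak was that of Nfatc1, which averaged 27.7, 38.8, 183 and 33.7 CPM at 0, 1, 2 and 4 h. Nfatc2 averaged 0.155, 0.194, 5.69 and 1.598 CPM and Zfp469, a zinc-finger gene linked to collagen of the cornea, 13.9, 12.6, 65.2 and 18.4 CPM. Dlx3, a homeobox factor of skeletal development, Htr1d and A930028N01Rik had the same pattern at lower levels, Dlx3 at 0.112, 0.0780, 1.10 and 0.247 CPM. Sox9 was at 22.0, 23.8, 74.2 and 23.5 CPM. Among the genes with the deepest troughs were Klf15 (0.581, 1.07, 0.187 and 1.27 CPM), Spry3 (0.853, 0.680, 0.142 and 1.05 CPM), Zfp108 (1.24, 0.580, 0.142 and 0.9502 CPM), Ankrd23, Gm47148 and Gm38155, all at low counts. The genes were then read in the IFT88siRNA libraries, which had no part in choosing them. Of 166 peak genes measured there 164 (98.8%) were highest at 2 h among 0, 1, 2 and 4 h, against 23% of all genes. Of the 248 trough genes 239 (96.4%) were lowest at 2 h, against 23%.

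**Figure D4:**
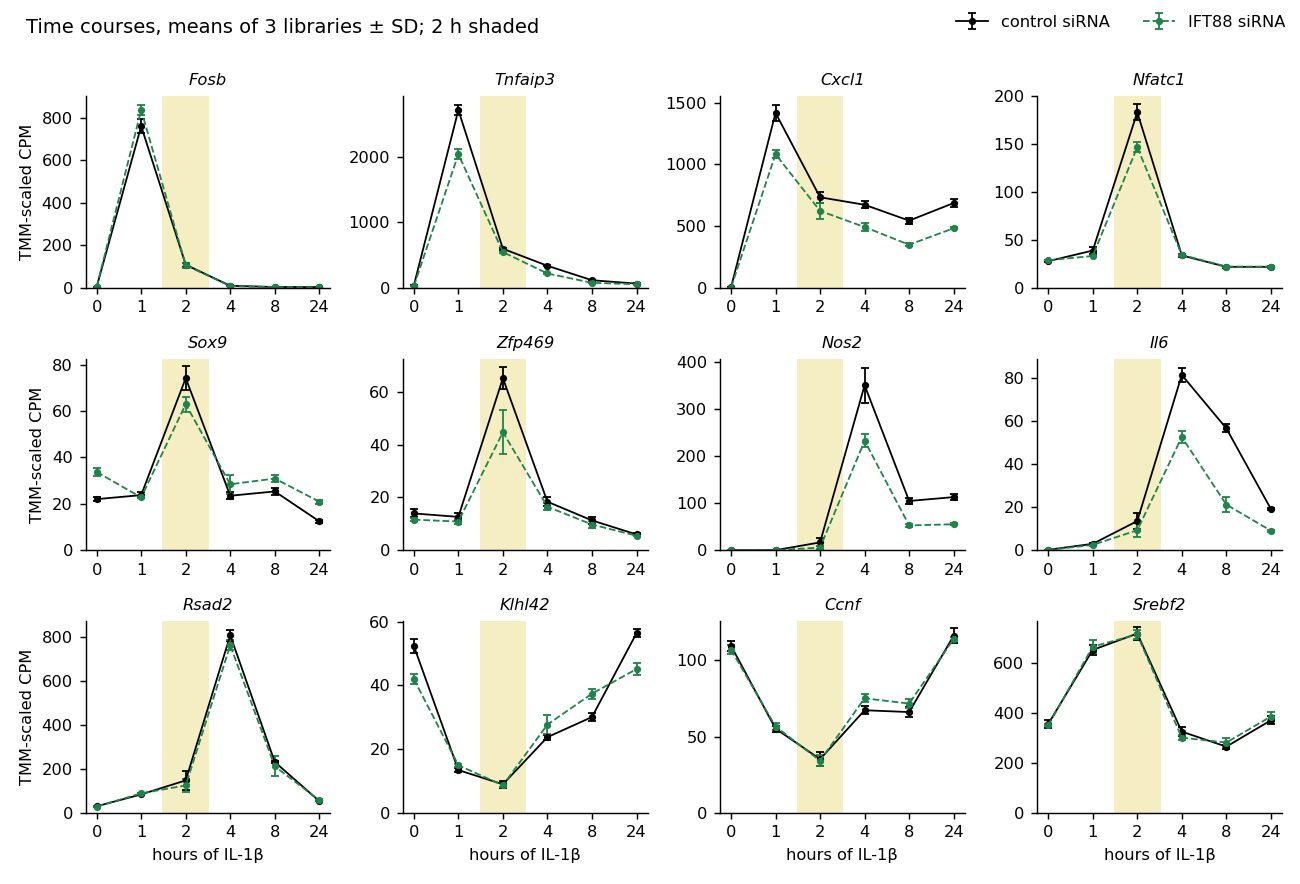
Mean TMM-scaled CPM ± SD of 3 libraries (vertical axis, from 0) at 0, 1, 2, 4, 8 and 24 h of IL-1β (horizontal axis, evenly spaced points) for 12 genes, with NT cells as solid black lines, IFT88siRNA cells as dashed green lines and 2 h shaded. Nfatc1, Sox9 and Zfp469 peak at 2 h with both siRNAs, Fosb, Tnfaip3 and Cxcl1 peak at 1 h, Nos2, Il6 and Rsad2 peak at 4 h, and Klhl42 and Ccnf are lowest at 2 h.

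IFT88siRNA cells gave 2 h and 0 h libraries that shared none with the NT comparison. They came from the same line and time course, so IL-1β and handling cannot be told apart in them either. In these 1929 of 15180 genes (12.7%) rose and 2087 (13.7%) fell. Of the 1931 genes that rose in NT cells 1912 were tested, 1549 (81%) rose and 3 fell. Of the 2205 that fell 2126 were tested, 1619 (76.2%) fell and 1 rose. Medians were 1.03 in NT and 0.964 in IFT88siRNA cells for the rises and −0.938 and −0.835 for the falls, where the genes had been chosen by their NT values. Across 14794 genes the log2 changes had a Pearson r of 0.934 and a Spearman rho of 0.903 (genes are not independent replicates). In the gene lists 38 of 42 immediate-early factors, 12 of 15 other chemokines and 7 of 8 NF-κB inhibitors rose, 25 of 34 mitosis genes fell, and 19 of the 26 actin-cytoskeleton genes rose.

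A test of the difference between the 2 responses called 39 of 15794 genes (0.247%), in 32 of which the log2 change was lower in IFT88siRNA cells and in 7 higher. Of the 32, 27 were genes that rose in NT cells. At an unadjusted p under 0.05 there were 1988 genes. Atf3, a stress-induced factor, was at 23.7, 23.8 and 25.1 CPM at 0 h and 68.7, 72.0 and 74.0 CPM at 2 h in NT cells and at 12.3, 10.9 and 11.98 CPM at 0 h and 62.7, 62.3 and 65.0 CPM at 2 h in IFT88siRNA cells, a log2 difference in response of 0.86 ± 0.0822 (SE, adjusted p = 1.26e-05). Cilp2, a cartilage matrix protein, was at 4.55, 4.64 and 3.58 CPM at 0 h and 58.2, 34.2 and 57.4 CPM at 2 h in NT cells and at 6.04, 5.40 and 4.59 CPM at 0 h and 27.5, 23.9 and 32.6 CPM at 2 h in IFT88siRNA cells, a log2 difference of −1.16 ± 0.273 (SE, adjusted p = 0.0389). Sox9 was at 32.7, 35.9 and 32.9 CPM at 0 h and 64.5, 59.3 and 65.1 CPM at 2 h in IFT88siRNA cells, a log2 difference of −0.86 ± 0.0877 (SE, adjusted p = 2.46e-05). Dusp8 and Ankrd1 also had higher log2 changes in IFT88siRNA cells, with log2 differences of 0.68 and 0.65. H19 and Adh1 had lower log2 changes there, with log2 differences of −1.38 and −1.42. Such a difference can lie in the 0 h level. By CPM, Atf3 was lower at 0 h in IFT88siRNA than in NT cells and not higher at 2 h. Adh1 was higher at 0 h and overlapped at 2 h, while Cilp2, Sox9 and H19 were lower at 2 h. The log2 change of H19 was 1.86 in NT and 0.489 in IFT88siRNA cells, and that of Adh1 2.69 and 1.28. Tlr2 had a log2 difference of −0.64 ± 0.0670 (SE, adjusted p = 2.87e-05). The number called was 23 without replicate 3 of the NT 0 h group, 63 without replicate 2 and 68 without replicate 3 of the NT 2 h group. Cxcl1 had a log2 difference of 0.42 ± 0.206 (SE, adjusted p = 0.416), Il6 of 0.40 ± 0.947 (SE, adjusted p = 0.914) and Nos2 of −2.95 ± 3.43 (SE, adjusted p = 0.791). For these 3 genes a difference was not detectable at this depth and number of replicates. Nor was it for Tnf (log2 difference −2.955 ± 1.318, SE, adjusted p = 0.353). Nos2 and Tnf each had 1 NT count at 0 h, so their SE is a poor guide to precision and equal responses are not shown. At 2 h Tnf was at 2.503, 2.794 and 3.831 CPM in IFT88siRNA and 7.08, 5.894 and 8.805 CPM in NT cells. Cxcl1 was at 608.3, 566.7 and 694.5 against 704.2, 722.9 and 785.5 CPM. Nos2 (5.047, 2.885 and 9.153 against 19.56, 7.209 and 23.6 CPM) and Il6 overlapped between siRNAs. These levels were scaled separately and not tested here.

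**Figure D5:**
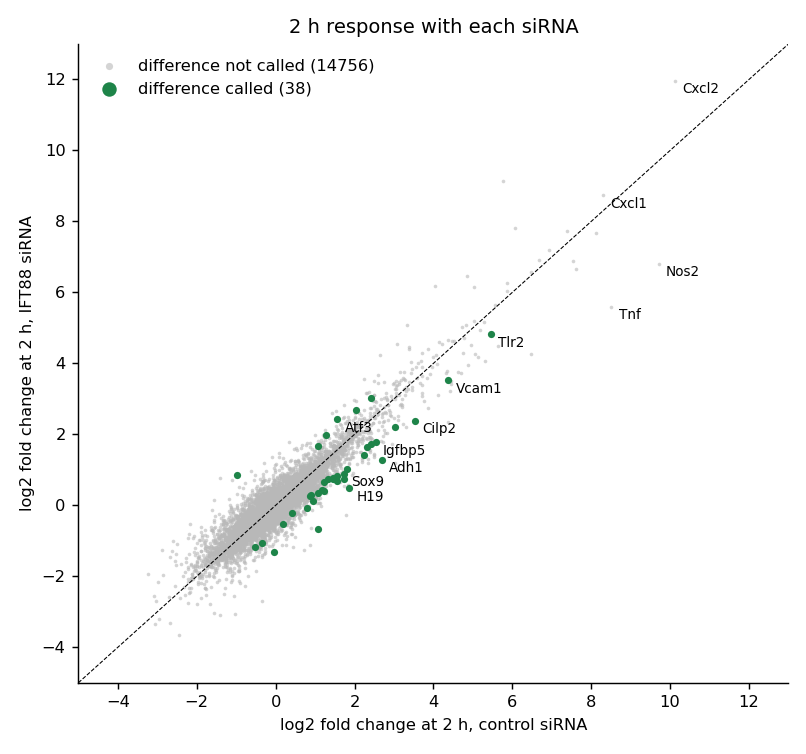
Log2 fold change at 2 h against 0 h in IFT88siRNA cells (vertical axis) against that in NT cells (horizontal axis) for 14794 genes tested with both, 1 point per gene, with the dashed line marking equal values and green points the 38 genes of this set whose difference was called. Most points lie along the line (Pearson r 0.934 across genes), and most green points, including Sox9, H19, Adh1 and Cilp2, lie below it while Atf3 lies above.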

How the data were processed

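Poly(A) RNA of the 36 libraries had been sequenced in paired ends. Per the study's methods and the submitters' processing notes, reads had been aligned with HISAT2 2.1.0 to GRCm38 and counted per Ensembl gene with featureCounts of Subread 1.6.3 at default settings, and the raw counts of each library were deposited by the authors. The authors also deposited TPM values from Salmon 0.9.1, corrected for GC bias. Counts of similar genes, and of genes that overlap on either strand, are therefore uncertain.

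Counts of the 6 libraries were filtered with filterByExpr, scaled by TMM and tested in edgeR 4.0.16 (R 4.3.3; glmQLFit and glmQLFTest) with Benjamini-Hochberg adjustment over all genes tested. Genes with an adjusted p under 0.05 and a fold change over 1.5 were called. The SE of a log2 change was derived from the change and its F statistic and was not estimated separately. Contrasts with 1 h and 4 h used 1 model of the 18 NT libraries, and the difference between siRNAs an interaction term in a model of 12 libraries. CPM at 0, 1, 2 and 4 h come from the 18-library scaling and can differ slightly from those of the 6, and CPM of IFT88siRNA libraries were scaled among themselves. TPM was used for markers and, with limma 3.58.1 on log2(TPM + 1), as an alternative. DESeq2 1.42.0, other scalings and filters, a replicate block and each library left out were further alternatives, of which total-count scaling was added after seeing the data. The code was tested on simulated data. Ratios for genes with up to 3 counts at 0 h carry a 95% interval for counting error only, and genes with none were set against a floor of 3 counts over the group. Promoter windows came from RefSeq. Replicate numbers did not pair the libraries (correlations of same-numbered deviations between 0 h and 2 h of 0.069, 0.109 and 0.007). The labels do not say that replicates were separate cultures, so that p-values measure the spread between these libraries, which may be technical.

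The named genes were the 12 largest rises and falls among called protein-coding genes with a mean of at least 50 counts and no overlap between groups, the 5 smallest p, up to 4 called members of each list by size of change, every member of lists of at most 8, the 6 clearest peaks, troughs and late rises at 2 h, the 5 largest differences between siRNAs in each direction, and genes the study names. Members and lists were chosen with earlier results of these data known. Other genes in the text, the Zfp genes and the actin-cytoskeleton list were chosen after their values were seen. Some genes are not reported here.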

Additional observations from a re-analysis of the deposited data

Results flagged for a closer look

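The 2 h response differed between NT and IFT88siRNA cells in 39 genes by the interaction test, and the 5 largest differences in each direction among these were as follows. Ftl2-ps had a log2 difference of 3.30, Gm15583 of 1.83, Atf3 of 0.86, Dusp8 of 0.68 and Ankrd1 of 0.65, each a higher log2 change in IFT88siRNA cells. Ftl2-ps is a pseudogene of a ferritin gene, did not pass the filter in the 6 NT libraries, and its reads may belong to other copies. Gm15583 had a log2 change of −0.973 in NT and 0.864 in IFT88siRNA cells. Its difference was no longer called with the replicate block (1.82, adjusted p = 0.0608). Tssk6 had a log2 difference of −1.73, Adh1 of −1.42, H19 of −1.38, Ptgfr of −1.28 and Cilp2 of −1.16. The log2 change of Tssk6 was 1.06 in NT and −0.659 in IFT88siRNA cells. Adh1, an alcohol dehydrogenase, was at 0.383, 0.586 and 0.313 CPM at 0 h and 2.78, 3.17 and 2.46 CPM at 2 h in NT cells and at 1.54, 1.27 and 1.34 CPM at 0 h and 3.80, 3.53 and 2.82 CPM at 2 h in IFT88siRNA cells. H19, an imprinted non-coding RNA, was at 1.53, 1.67 and 1.52 CPM at 0 h and 5.45, 5.26 and 6.48 CPM at 2 h in NT cells and at 2.66, 2.29 and 2.51 CPM at 0 h and 3.71, 3.34 and 3.43 CPM at 2 h in IFT88siRNA cells. Ptgfr, the prostaglandin F receptor, was at 1.45, 2.93 and 2.51 CPM at 0 h and 2.41, 2.13 and 2.19 CPM at 2 h in NT cells and at 5.16, 4.59 and 5.12 CPM at 0 h and 2.13, 2.20 and 1.69 CPM at 2 h in IFT88siRNA cells.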

How the results depend on the processing

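The number of genes called at 2 h against 0 h moved by more than 1.5 times with total counts and without the fold-change threshold. With the TPM values the rises moved by as much and the falls did not. DESeq2 and leaving out 1 library moved the numbers by less. Total counts in place of TMM, chosen after seeing the data, gave 1196 rises and 4079 falls, and no fold-change threshold gave 4586 and 4675. The TPM values gave 1064 rises, 1144 with a pseudocount of 0.1 and 1051 without a filter, with 2937, 3230 and 2805 falls. DESeq2 gave 1975 and 1902, and leaving out 1 library gave 1904 to 2046 rises and 2113 to 2317 falls. Leaving out 1 2 h library gave 868 to 1097 genes higher and 871 to 950 lower than at 1 h, and 1738 to 1847 higher and 2386 to 2651 lower than at 4 h. The 39 differences between siRNAs became 196 without the fold threshold and 23 to 68 when 1 library was left out (23 without NT 0 h replicate 3, 63 and 68 without NT 2 h replicates 2 and 3). Replicate numbers are shared between groups but did not pair the libraries. With the replicate block 1916 genes rose and 2196 fell, of which 1909 and 2171 were shared with the fit without it, 982 were higher and 937 lower than at 1 h, 1681 higher and 2665 lower than at 4 h, and 54 differed between siRNAs. No named gene called in the setting reported or in an alternative changed sign between them. Of the named genes not called, Ptges turned from 0.22 to −0.05 with total counts and to −0.20 with TPM, Ptgfr turned to 0.19 and 0.03 without replicate 2 or 3 of the NT 0 h group, and Nphp4 ranged from −0.29 to 0.08 over the settings. The cause of these shifts was not tested, except that the threshold alone sets the counts without it. Genes near the filter are limited by depth: 13 of the genes that rose had 1 to 3 counts and 2 had none over the 0 h libraries.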

Other observations

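Among the genes that rose at 2 h and were not called at 1 h were Nos2, Nfatc2, Ccl22, Fibcd1, Dlx3 and Serpina3f. Not being called does not show that a gene was unchanged at 1 h. Nos2 and Serpina3f had higher means at 1 h than at 0 h, at low levels. Ccl22, a ligand of Ccr4, averaged 0.0855, 0.0467, 0.773 and 1.47 CPM at 0, 1, 2 and 4 h, and Serpina3f, a serine protease inhibitor, 0.113, 0.225, 2.62 and 64.5 CPM. Saa3, an acute-phase serum amyloid protein, was at 0.213, 0.0837 and 0.0447 CPM at 0 h and 5.61, 3.90 and 7.42 CPM at 2 h, and its log2 change of 5.55 became 5.77 without replicate 2 of the 2 h group. Markers of other cell types moved in part: the summed osteoblast markers were at 1400 to 1470 TPM at 0 h and 726 to 836 TPM at 2 h, mostly Spp1, and the summed skeletal muscle markers at 3.94 to 5.1 TPM and 16 to 21.7 TPM, mostly Acta1. Their part in the other results was not tested.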
